A study of Mus musculus with 9 samples.

Results

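*Btg2* and *Tob1*, both members of the BTG/TOB family of antiproliferative genes, were examined in RNA-seq libraries of frozen brain tissue, 1 side of the midline per mouse, from C57BL/6J mice. They are 2 of the 689 genes in the deposited table and were taken from it by symbol. No other member of the family (*Btg1*, *Btg3*, *Btg4* or *Tob2*) is among the genes analysed here. The 9 libraries fall into 3 groups of 3 mice. Young controls were 5 months old by the sample labels and came from JAX, and they received 6 weeks of control diet. Aged controls were 24 months old, came from NIA and received the same diet. Aged-repopulated mice were also 24 months old and from NIA. They received the CSF1R inhibitor PLX5622 for 2 weeks, which by the paper eliminated most but not all hippocampal microglia of aged mice. They then received 4 weeks of control diet, during which new microglia repopulated the brain. No group carries a transgene or a deleted gene. The paper states that the mice were male, were killed by carbon dioxide inhalation and were perfused, and that the tissue was collected after behavioral testing. Age and supplier change together between young and aged controls and cannot be told apart, whereas both aged groups share them. The aged groups differ in exposure to PLX5622 and in the elimination of microglia as well as in the repopulation that followed. No group with elimination alone is among the 9 libraries, so these cannot be told apart. The words with or after repopulation therefore name a comparison, not a cause.

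The table holds only genes that the authors' own model called on these libraries and, by the paper's methods, possibly on those of further groups, and both genes were picked with their levels known. Their values are therefore given as a description, without a test. With 3 libraries against 3, an exact permutation test could in any case not go below p = 0.10. Values are RPKM, the reads of a gene scaled by the length of its transcript and by how many reads of the library mapped, so levels can be compared between genes. Read depth is unknown, and precision rests on the spread between the 3 mice of a group. The summed RPKM of the table was between 22242 and 24853 in the 9 libraries. Aged-repopulated library 1 stood apart in microglial markers, with the highest value of all 9 libraries for each of the 8 in the table, and differences of *Btg2* and *Tob1* are also given without it. Each value is from bulk tissue, where fewer cells that express a gene and less RNA per cell cannot be told apart.

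BTG/TOB proteins have no enzymatic activity of their own. Through their shared BTG domain they bind the deadenylase subunits of the CCR4-NOT complex, which shortens the poly(A) tails of messenger RNAs and leads to their decay. *Btg2*, also known as PC3 or TIS21, was found as a gene that growth factors induce within minutes. It is a target of p53 and is expressed in neural progenitors as they leave the cell cycle, and in neurons it is induced by activity. *Tob1* encodes a larger protein whose C-terminal part binds the poly(A)-binding protein, and it restrains proliferation, among others in T cells.

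*Btg2* (ENSMUSG00000020423.6) lies on the minus strand of chromosome 1 of GRCm38, the assembly also called mm10, from 134075170 to 134079120 in GENCODE M21. Its transcript has 2 exons and 2743 nucleotides. *Tob1* (ENSMUSG00000037573.5) lies on the plus strand of chromosome 11 from 94211454 to 94215495 and also has 2 exons, with a transcript of 2288 nucleotides. No other annotated gene overlaps either of them, on either strand, so reads from an overlapping gene do not enter their values. The promoters of both genes are shown because both genes were lowest in the same group of mice and because cyclic AMP and neuronal activity act on rapidly induced genes through the cAMP response element (CRE, letters TGACGTCA). The sequences are from RefSeq on GRCm38.p6 and run 5′ to 3′ on the strand of the gene, from 250 bases before to 50 bases after its RefSeq start. They are chr1:134079106-134079405 on the minus strand for *Btg2* and chr11:94211204-94211503 on the plus strand for *Tob1*. Capitals mark the CRE or its half-site (TGACG), the CCAAT box (CCAAT) and the TATA box (TATAAA), each on either strand.
Btg2: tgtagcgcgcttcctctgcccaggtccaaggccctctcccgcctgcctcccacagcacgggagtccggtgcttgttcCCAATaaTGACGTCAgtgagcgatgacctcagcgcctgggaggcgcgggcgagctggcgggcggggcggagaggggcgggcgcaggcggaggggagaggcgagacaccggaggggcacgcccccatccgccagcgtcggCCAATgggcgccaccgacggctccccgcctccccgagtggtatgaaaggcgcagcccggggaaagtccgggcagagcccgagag
Tob1: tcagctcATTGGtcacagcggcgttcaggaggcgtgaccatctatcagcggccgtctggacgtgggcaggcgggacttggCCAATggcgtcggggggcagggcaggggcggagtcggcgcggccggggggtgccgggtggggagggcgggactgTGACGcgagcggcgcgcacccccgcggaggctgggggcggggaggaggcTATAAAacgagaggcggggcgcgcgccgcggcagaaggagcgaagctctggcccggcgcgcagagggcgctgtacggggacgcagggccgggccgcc

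The *Btg2* promoter held the complete CRE from position -166 to -159 relative to the RefSeq start, and a CCAAT box close before it, from -173 to -169. The 5 letters of the half-site lie within the complete element. The complete element was present in 1.79% of 32851 mouse promoters of the same length, and in 20 (3.59%) of the 557 table genes that have a promoter entry. *Tob1* held the half-site alone, from -96 to -92, a match found in 20.8% of all promoters and in 40.8% of the 557 genes. *Tob1* also held a TATA box from -47 to -42 (13.6% of all promoters), which *Btg2* did not. Both promoters held the GC box (GGGCGG) 3 times, and 35.7% of all promoters and 70.2% of the 557 genes had at least 1 match to it. Each also held the CCAAT box 2 times, a match found in 37.4% of all promoters and 46.7% of the 557 genes. No match was found in either promoter to the AP-1 site (TGANTCA), the CArG box or the p53 half-site. The promoters are 72.0% and 75.3% G and C, against a median of 52.7% over all promoters. A match of letters is a description and does not show that a factor binds. Any part of these elements in the levels of *Btg2* or *Tob1* was not tested.

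*Btg2* was lowest in the aged-repopulated brains and highest in the aged controls. Its RPKM was 5.97, 8.20 and 9.34 in young controls 1, 2 and 3, and 9.17, 12.1 and 14.0 in aged controls 1, 2 and 3. In aged-repopulated mice 1, 2 and 3 it was 3.90, 3.46 and 3.58. All 3 aged-repopulated libraries were below all 6 control libraries, and the lowest aged control was 2.35-fold above the highest aged-repopulated library. The ranges of young and aged controls overlapped, since young control 3 was above aged control 1. The young control mean was 7.83 ± 1.72 RPKM (SD, n = 3). Aged controls averaged 11.8 ± 2.44 RPKM and aged-repopulated mice 3.65 ± 0.23 RPKM, each with n = 3. The aged-repopulated mean was 69.0% below the aged control mean and 53.5% below the young control mean. The nearest libraries of aged-repopulated and young control mice were 2.07 RPKM apart, whereas under quantile normalization these groups touched and their log2 difference was -0.44. The aged control mean was 50.1% above the young control mean, with overlapping ranges. Of these libraries only aged controls 2 and 3 exceeded the paper's minimum of 10 RPKM for *Btg2*. Its differences and ranks against aged controls may therefore depend on how it entered the table.

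*Tob1* was expressed at a higher level than *Btg2* in every library and had the same order of group means with smaller differences. Its RPKM was 20.4, 22.8 and 21.4 in young controls 1, 2 and 3, and 24.8, 23.0 and 23.8 in aged controls 1, 2 and 3. In aged-repopulated mice 1, 2 and 3 it was 19.5, 18.4 and 18.5. The 3 groups did not overlap, with aged-repopulated brains lowest, young controls between and aged controls highest. The means were 21.5 ± 1.22 RPKM (SD, n = 3), 23.9 ± 0.92 (SD, n = 3) and 18.8 ± 0.59 (SD, n = 3) in young controls, aged controls and aged-repopulated brains. The aged-repopulated mean was 21.2% below aged controls and 12.6% below young controls. Between aged and young controls the nearest libraries were only 0.18 RPKM apart, less than the SD of either group, and between young controls and aged-repopulated brains they were 0.87 RPKM apart. Between aged controls and aged-repopulated brains the gap was 3.48 RPKM.

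**Figure D1:**
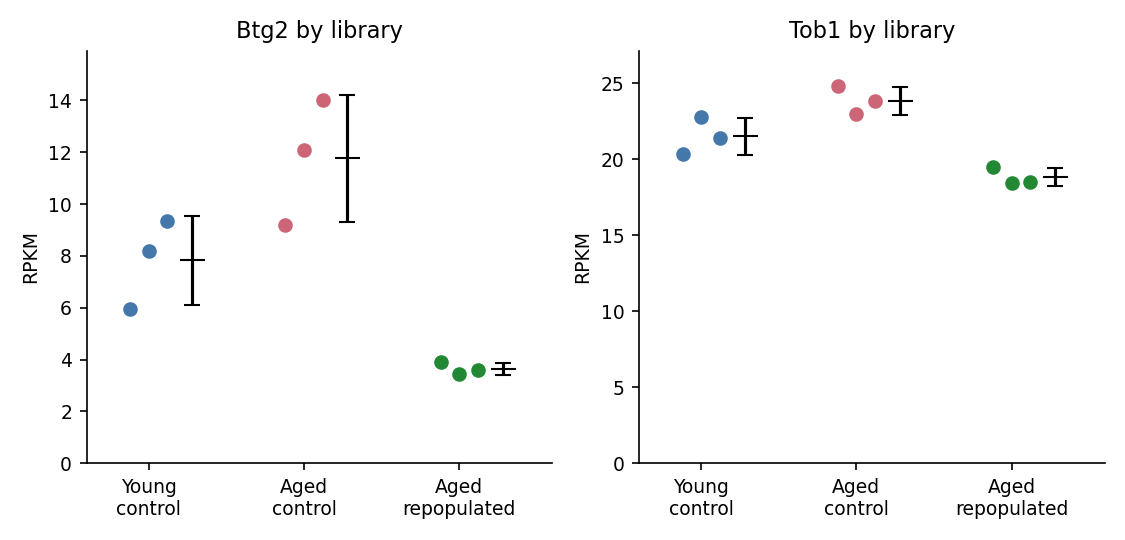
RPKM of *Btg2* (left) and *Tob1* (right) in each of the 9 libraries, as points by group, with the group mean and SD (n = 3) as black bars; each axis starts at 0. The aged-repopulated libraries lie at 3.46 to 3.90 RPKM for *Btg2* and 18.4 to 19.5 RPKM for *Tob1*, below every control library.

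On the log2(RPKM + 1) scale, the difference of *Btg2* between aged-repopulated and aged control brains was -1.44 with a standard error of 0.16 from limma. It was the lowest of 689 genes. *Tob1* had a difference of -0.33 with a standard error of 0.05, the 8th lowest, and the median over the table was -0.05. Without aged-repopulated library 1 the differences were -1.48 for *Btg2* and -0.35 for *Tob1*. Both genes were lower after repopulation without overlap of the groups, which held for 22.2% of the table (37.4% for either direction). Against young controls, *Btg2* differed in aged-repopulated brains by -0.91 (standard error 0.16, the lowest of the table) and *Tob1* by -0.18 (standard error 0.05, the 17th lowest), beside a table median of 0.04. Without aged-repopulated library 1 these were -0.95 and -0.21. Both were lower there without overlap, as were 11.2% of the genes of the table (42.7% for either direction). Aged-repopulated libraries below all 6 control libraries were found for 25 genes, 3.63% of the table. The comparisons share their aged control or aged-repopulated libraries, and both genes were chosen for these levels, so nothing is read from these shares.

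Between aged and young controls, the differences were 0.53 (standard error 0.16) for *Btg2* and 0.14 (standard error 0.05) for *Tob1*, with a table median of 0.10. *Btg2* had the 19th highest value, with the limit on its entry into the table given above. *Tob1* had the 237th highest value. Of both genes only *Tob1* was higher in aged controls without overlap, as were 50.7% of the genes of the table (70.1% for either direction). The median log2 level of a library was 0.11 higher in aged than in young controls. After median centring of the libraries the *Tob1* difference was 0.037 and its groups overlapped, and after a correction for transcript length it was 0.0045. The *Btg2* difference was 0.42 under both. The full order of aged-repopulated below young control below aged control, without overlap at either step, was found for 5 genes, 0.726% of the table. They were *Tob1*, the deubiquitinase gene *Usp2*, the nucleosome-binding gene *Hmgn3*, the centrin gene *Cetn3* and *Wbp5*, the last 3 of which were named after their values were seen.

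**Figure D2:**
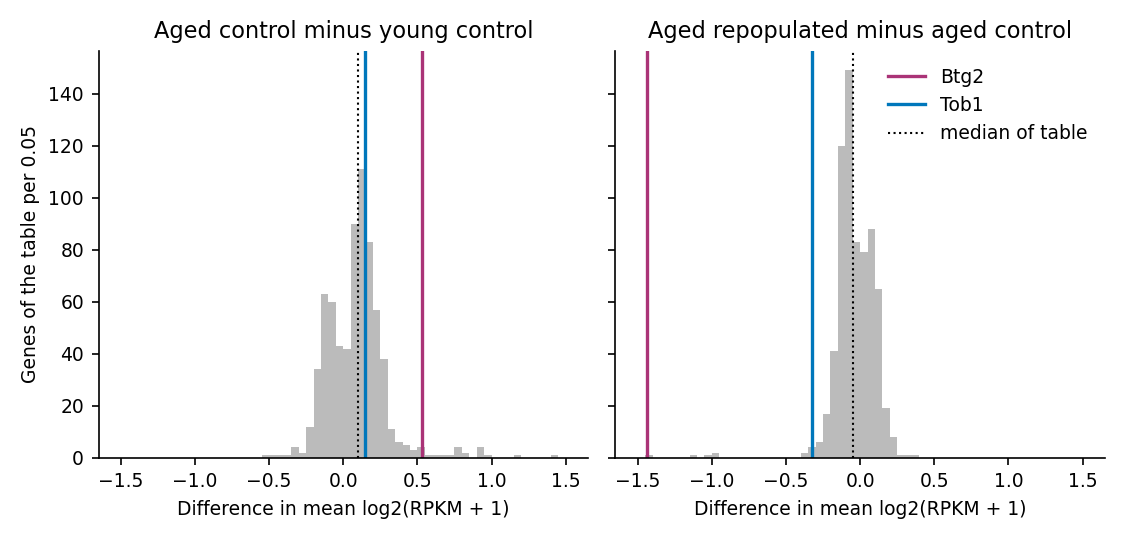
Histograms of the difference in mean log2(RPKM + 1) over the 689 genes of the table, for aged minus young controls (left) and aged-repopulated minus aged controls (right), in steps of 0.05 with genes per step on the vertical axis. The solid lines mark *Btg2* (0.53 and -1.44) and *Tob1* (0.14 and -0.33), and the dotted line is the median of the table (0.10 and -0.05).

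The 2 genes differed in how much they varied between mice of a group. The coefficient of variation of *Btg2* was 21.9% in young controls and 20.7% in aged controls, where 3 and 7 genes of the table had a higher one, and 6.29% in aged-repopulated brains, where 133 genes did. For *Tob1* it was 5.66%, 3.86% and 3.11%. The median over the table was 2.79%, 4.18% and 3.41% in the same order of groups. *Tob1* thus lay close to the typical spread in both aged groups, whereas *Btg2* was among the most variable genes in both control groups. *Btg2* was also among the lowest expressed genes of the table. Its mean over the 9 libraries was 7.75 RPKM with 1 gene below it, against 21.4 RPKM and 371 genes below for *Tob1*.

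The ratio of *Tob1* to *Btg2* RPKM within a library shows the unequal size of their differences. It was 3.41, 2.78 and 2.29 in young controls 1, 2 and 3, and 2.70, 1.90 and 1.70 in aged controls 1, 2 and 3. In aged-repopulated mice 1, 2 and 3 it was 4.99, 5.33 and 5.17. The aged-repopulated ratios, 5.16 ± 0.17 (SD, n = 3), were above all control ratios, and those of young controls (2.83 ± 0.56) and aged controls (2.10 ± 0.53) overlapped.

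Over the 9 libraries, the log2 levels of *Btg2* and *Tob1* had a Pearson correlation of 0.91, which is a description of 3 groups of 3 libraries. *Tob1* ranked 6th among the genes nearest to *Btg2*, and *Btg2* ranked 2nd among those nearest to *Tob1*. The 5 genes nearest to *Btg2* were *Emc6*, a subunit of the membrane protein insertion complex of the endoplasmic reticulum (0.98), the phosphatase gene *Dusp1* (0.98), the AP-1 gene *Fos* (0.95), the orphan nuclear receptor gene *Nr4a1* (0.95) and the AP-1 gene *Junb* (0.92). The 5 genes nearest to *Tob1* were *Ackr1*, an atypical chemokine receptor (0.94), *Btg2* (0.91), *Usp2* (0.89), the cyclin G2 gene *Ccng2*, which is linked to cell cycle exit (0.89), and the noncoding RNA gene *Gas5*, known to accumulate in growth-arrested cells (0.87). The 2 sets of 5 share no gene. *Emc6* spans a much smaller range than *Btg2*, with means of 15.8, 16.7 and 14.5 RPKM in young controls, aged controls and aged-repopulated brains.

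**Figure D3:**
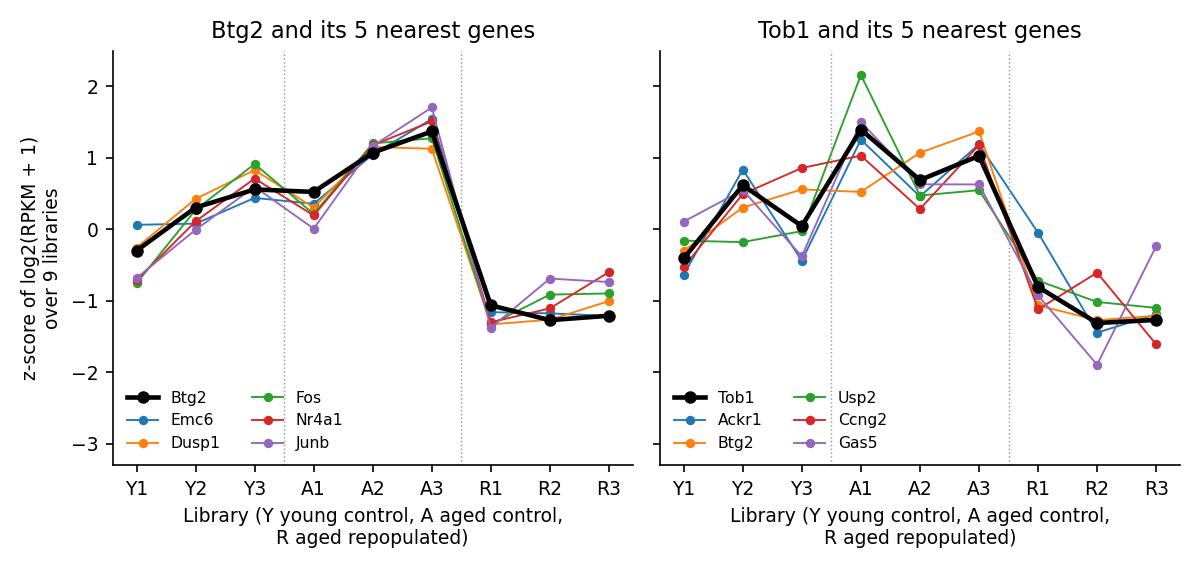
z-scores of log2(RPKM + 1) over the 9 libraries (Y, young control; A, aged control; R, aged-repopulated) for *Btg2* (left) and *Tob1* (right) in black and for the 5 genes with the highest Pearson correlation to each in color. Lines join the values of a gene and imply no order of mice; correlations run from 0.92 to 0.98 for *Btg2* and from 0.87 to 0.94 for *Tob1*.

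Of the 47 immediate early genes listed, which neurons and other cells switch on within minutes of a stimulus, 6 are in the table. Beside *Dusp1*, *Fos*, *Junb* and *Nr4a1* these are the zinc finger transcription factor gene *Klf6* and the kinase gene *Sgk1*. Between aged control and aged-repopulated brains 5 of the 6 fell by limma (Benjamini-Hochberg over 689 genes, threshold 0.05), where 5.81% of the table was called lower and 8.71% in either direction, and the median difference of the 6 was -0.98 beside -0.05 over the table. *Dusp1*, which switches off MAP kinases, had 20.3, 27.4 and 27.2 RPKM in aged controls 1, 2 and 3 and 11.2, 11.5 and 12.6 in aged-repopulated mice 1, 2 and 3, without overlap. Its difference was -1.01 (standard error 0.14, limma adjusted p = 0.010). *Fos* and *Junb*, which encode subunits of the AP-1 transcription factor, fell by 1.11 and 0.96 on the log2 scale (limma adjusted p = 0.034 and 0.041), and *Nr4a1* fell by 0.99 (limma adjusted p = 0.034). *Klf6* fell by 0.21, with a limma adjusted p of 0.048. *Sgk1*, also a glucocorticoid target, differed by 0.13 with a limma adjusted p of 0.326.

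The number of early genes called was 1, which was *Dusp1*, in the fits without young control 2, without aged control 2, without aged control 3 or without any 1 of the 3 aged-repopulated libraries. It was 3 without young control 1. *Dusp1* kept its call in all 9 fits that left out a library (limma adjusted p from 0.0034 to 0.045), and *Klf6* in 0 of 9. Without variance moderation 0 were called, and 5 had an unadjusted p under 0.05. These genes belong to a table selected on the same libraries, so the calls are not independent evidence.

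Against young controls, *Dusp1* fell in aged-repopulated brains by 0.75 on the log2 scale (limma adjusted p = 0.018), the only early gene called, where 0.726% of the table was called lower and 4.93% in either direction. *Fos*, *Nr4a1* and *Junb* differed by -0.68, -0.52 and -0.46, with limma adjusted p values of 0.091, 0.120 and 0.181. *Dusp1* was not called without young control 2 or young control 3, where 0 early genes were called, and 2 were called without young control 1. Between aged and young controls 0 of the 6 early genes were called by limma, where 62.8% of the table was, and 3 had an unadjusted p under 0.05. Differences of *Junb*, *Nr4a1*, *Fos* and *Dusp1* were 0.50, 0.47, 0.43 and 0.26. *Fos*, *Junb* and *Nr4a1* were called higher without young control 3, together with *Klf6*, and without aged control 1, together with *Dusp1*. Without aged-repopulated mouse 3 *Klf6* alone was called higher, and without young control 1 *Sgk1* alone was called lower.

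In the control groups, but not in aged-repopulated mice, *Btg2* and most early genes had their lowest and highest levels in the same mice. In young controls, *Btg2* and all 6 early genes were lowest in mouse 1 and highest in mouse 3. In aged controls, *Btg2*, *Fos*, *Junb*, *Nr4a1* and *Sgk1* were lowest in mouse 1 and highest in mouse 3. *Dusp1* was lowest in aged control 1 and highest in aged control 2, and *Klf6* was lowest in aged control 3. *Tob1* was also lowest in young control 1, but it was highest in young control 2, and in aged controls it was lowest in mouse 2 and highest in mouse 1. In aged-repopulated mice, *Btg2* was highest in mouse 1 and lowest in mouse 2, as were *Tob1* and *Sgk1*, whereas *Fos*, *Junb*, *Nr4a1* and *Dusp1* were lowest in mouse 1. The *Dusp1* promoter was the only one of the 6 early gene promoters with a complete CRE, as in *Btg2*. The complete element was present in 3.59% of the 557 table genes with a promoter entry. The half-site was held by 5 of the 6, *Sgk1* among them, and by 40.8% of the 557 genes. The 30 bases around the *Dusp1* element, chr17:26508597-26508626 on the minus strand of GRCm38.p6, are shown for comparison with the *Btg2* promoter above, with the element in capitals at -143 to -136.
Dusp1: ggtagggcgggTGACGTCAccgcccggtca

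Of 36 symbols listed for the deadenylation machinery that BTG/TOB proteins recruit, older synonyms included, 5 are in the table. *Cnot2* and *Cnot3* encode noncatalytic subunits of the CCR4-NOT complex, *Pabpn1* the nuclear poly(A)-binding protein, *Cpeb3* an RNA-binding protein that represses translation at synapses and recruits TOB proteins to its targets, and *Ago1* an Argonaute protein of microRNA silencing. Between aged and young controls 3 of the 5 rose at an adjusted p under 0.05 (limma), where 46.3% of the table was called higher, and the median difference was 0.12 beside 0.10. *Pabpn1* rose from 69.1 ± 2.24 RPKM (SD, n = 3) to 79.1 ± 4.87 (SD, n = 3), a log2 difference of 0.19 with a limma adjusted p of 0.012. *Cnot2* rose from 14.4 ± 0.27 to 16.0 ± 0.25 RPKM and *Cnot3* from 11.5 ± 0.52 to 12.6 ± 0.31 RPKM (limma adjusted p = 0.0096 and 0.022). The call of *Cnot3* was lost without young control 1, young control 3 or aged control 2, with limma adjusted p values up to 0.078. Over the table, 319 genes were called higher and 114 lower with age, and after median centring 78 higher and 215 lower. Centring left none of these 5 called higher and 2 called lower, and after the correction for transcript length 0 were called and 0 had an unadjusted p under 0.05.

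Between aged control and aged-repopulated brains *Cpeb3* alone of the 5 was called, and it rose (2.9% of the table was called higher). *Cpeb3* averaged 13.8 ± 0.37 RPKM in aged controls and 15.5 ± 0.52 RPKM in aged-repopulated brains (SD, n = 3 each), with a log2 difference of 0.15 and a limma adjusted p of 0.042. It kept its call only in the fits without aged control 1 and without aged-repopulated mouse 1, and its limma adjusted p in the other 7 fits that left out a library was between 0.054 and 0.102. *Cnot2*, *Cnot3* and *Pabpn1* differed by -0.03, -0.07 and -0.12 and *Ago1* by 0.08, with limma adjusted p values of 0.420, 0.181, 0.105 and 0.123. Over the table, repopulation had 20 genes called higher and 40 lower, and after median centring 111 higher and 22 lower. The median of the 5 was -0.03, close to the -0.05 of the table. Between aged-repopulated and young control brains 0 of the 5 were called by limma, where 4.93% of the table was, and 2 had an unadjusted p under 0.05.

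**Figure D4:**
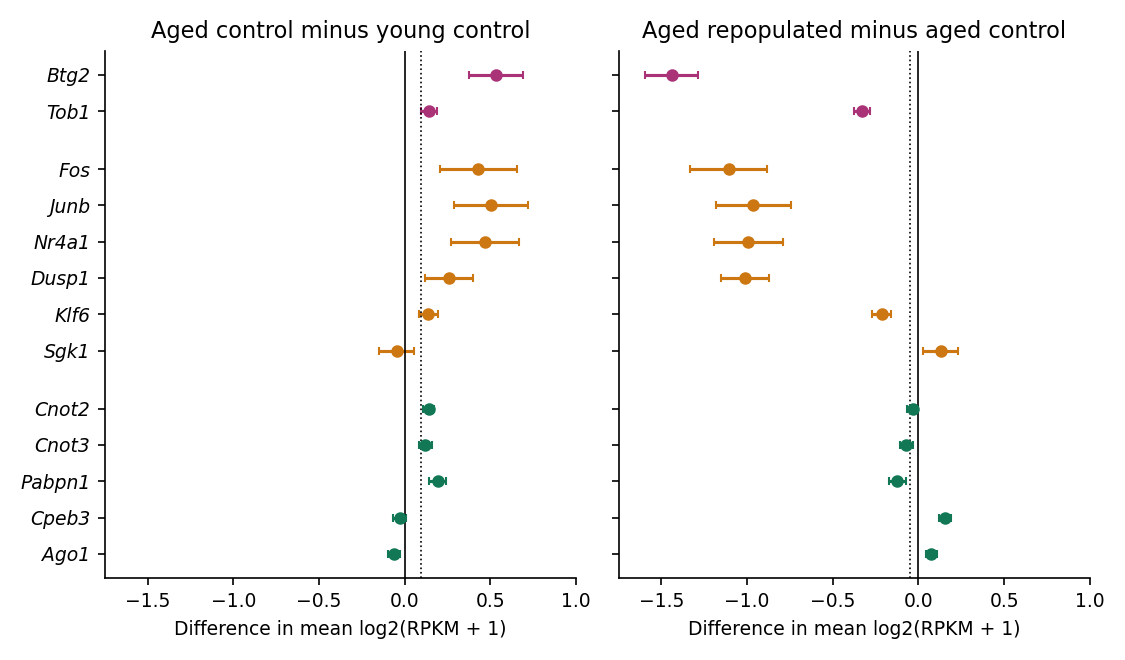
Difference in mean log2(RPKM + 1) with its standard error from limma for *Btg2* and *Tob1* (purple), the 6 immediate early genes of the table (orange) and the 5 deadenylation genes of the table (green), for aged minus young controls (left) and aged-repopulated minus aged controls (right). The solid line is 0 and the dotted line the median of the 689 genes; *Btg2* (-1.44) lies furthest to the left after repopulation, and the deadenylation genes lie between -0.12 and 0.15.

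Beside *Btg2* and *Tob1*, 19 targets or regulators of the p53 pathway were listed and 2 are in the table, the apoptosis gene *Bax* and the sestrin gene *Sesn1*. Both rose between young and aged controls, by 0.19 each on the log2 scale (limma adjusted p = 0.014 and 0.017), where 46.3% of the table was called higher. Neither kept its call after median centring, quantile normalization or the length correction, and with the last *Bax* turned to -0.077. *Sesn1* also lost its call without young control 1 or young control 3, with limma adjusted p values up to 0.055. With repopulation they differed by -0.08 and -0.10, and 0 were called, where 8.71% of the table was (limma adjusted p = 0.223 and 0.190; 0 had an unadjusted p under 0.05). Of 16 glucocorticoid targets 4 are in the table. *Dusp1* fell with repopulation, as given above, and *Sgk1*, *Tsc22d3* and *Klf15* differed by 0.13, -0.02 and 0.07, with limma adjusted p values of 0.326, 0.752 and 0.332. *Klf15* was the only one of the 4 called between aged and young controls, where 62.8% of the table was called in either direction. It was 0.24 higher in aged controls (limma adjusted p = 0.0099). Young controls had 7.88, 8.66 and 9.11 RPKM of *Klf15*, under the paper's minimum of 10 RPKM, and all aged libraries were above it. Its calls against young controls are therefore not independent of the selection. *Klf15* was not called after median centring, quantile normalization or the length correction (limma adjusted p = 0.068, 0.084 and 0.146 for *Klf15*). Against young controls, *Klf15* was 0.31 higher in aged-repopulated brains (limma adjusted p = 0.016, lost without young control 2 at 0.057). *Klf15* was 1 of 2 calls in this list beside the lower *Dusp1*, where 4.93% of the table was called in either direction. By direction, 4.21% of the genes were called higher and 0.726% lower. Of 26 binding partners and cell cycle genes, among them the cyclins D, the SMADs and *Prmt1*, 0 are in the table.

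Levels of cell type markers were compared over the same libraries. The table was selected on these libraries, so calls of its markers are not independent evidence. Of 15 microglial markers 8 are in the table and 0 are at 0 in any library. Their summed RPKM was 155 to 161 in young controls, 229 to 272 in aged controls and 318, 219 and 233 in aged-repopulated mice 1, 2 and 3. Mouse 1 of the last group, where *Btg2* and *Tob1* were also the highest of their group, was far above the others. By limma 7 of the 8 rose between young and aged controls (46.3% of the table was called higher), with a median of 0.78, and 7 of the 8 were called higher after repopulation when set against young controls (4.21% of the table), with a median of 0.72. *Laptm5*, 1 of the 7 in both comparisons, was at 7.73 to 8.66 RPKM in young controls. It exceeded the paper's minimum of 10 RPKM only in aged libraries. Of the microglial markers 0 of the 8 were called between the aged groups (limma, and 0 had an unadjusted p under 0.05), where 8.71% of the table was. Of 10 neuronal markers 4 are in the table. Their summed RPKM was 676 to 700.3 in young controls, 736 to 802 in aged controls and 721 to 731 in aged-repopulated brains, and the noncoding RNA gene *Snhg11* alone supplied 393 to 488 RPKM of it. With age 3 of the 4 were called higher and *Map2* lower (-0.12, limma adjusted p = 0.020). The rises of *Rbfox3*, *Gad1* and *Snhg11* were 0.16, 0.17 and 0.23, and the median log2 level of a library was itself 0.11 higher in aged controls. Median centring left 78 genes of the table called higher with age in place of 319, and values of the 4 markers under it are not given here. With repopulation 1 of the 4 was called. *Rbfox3*, which encodes NeuN, fell by 0.17 on the log2 scale (limma adjusted p = 0.045), but it kept its call in 1 of 9 fits that left out a library, with limma adjusted p values up to 0.094. *Map2*, *Gad1* and *Snhg11* differed by 0.08, -0.10 and -0.10 and were not called. Of 9 endothelial markers 2 are in the table, with a summed RPKM of 46.5 to 47.2 in young controls, 35.0 to 42.2 in aged controls and 32.7 to 40.2 in aged-repopulated brains. The transporter gene *Slco1a4* fell by 0.38 (limma adjusted p = 0.012, and called in 7 of 9 fits that left out a library), and *Itm2a* differed by 0.12 with a limma adjusted p of 0.376. Against young controls, *Slco1a4* was 0.41 lower in aged-repopulated brains (limma adjusted p = 0.0045), and *Itm2a* fell by 0.46 between young and aged controls (limma adjusted p = 0.0096, where 16.5% of the table was called lower). *Opalin*, 1 of 8 oligodendrocyte markers and the only one in the table, was at 15.5 to 19.0 RPKM in young controls, 10.9 to 13.2 RPKM in aged controls and 12.1 to 19.2 RPKM in aged-repopulated brains. *Opalin* had the lowest difference of the table with age (-0.53, limma adjusted p = 0.013) and the highest with repopulation (0.37, limma adjusted p = 0.093, not called). The part of microglial, neuronal, endothelial and oligodendrocyte markers in the levels of *Btg2* and *Tob1* was not tested.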

How the data were processed

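RNA-seq libraries were made from frozen brain tissue, 1 side of the midline per mouse, 3 mice per group. The authors called bases with Casava 1.8.2 (CASAVA and mm10 are also given in the submitters' processing notes), aligned reads to mm10 with ELAND and computed RPKM per gene. The paper gives a minimum of 10 RPKM per gene without saying in which libraries, and only aged controls 2 and 3 exceeded it for *Btg2*. The authors deposited the 689 genes called by their linear model, with replicates not pooled. The authors' F and t scores and their p-values stand in the same table and were not used. Library columns were mapped by title, and 0 were left unmapped.

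From the deposited RPKM, log2(RPKM + 1) was fitted with limma 3.58.1 in R 4.3.3 over all 9 libraries, with Benjamini-Hochberg adjustment over 689 genes at 0.05. Changes of low genes are understated on that scale. The code was tested on simulated data. Alternatives were a pseudocount of 0.1 or 10, untransformed RPKM, median centring, quantile normalization, a loess correction (span 0.5) for transcript length (686 genes), a minimum mean of 10 RPKM, only the groups compared, no variance moderation, and each library left out. Python 3.11.15, pandas 2.3.3 and matplotlib 3.10.9 made tables and plots. Annotation was GENCODE M21.

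The members and gene lists were chosen with earlier results of these data known. Named genes are *Btg2*, *Tob1*, the measured family and deadenylation genes, the called members of the other lists (at most 6 per contrast and list) and the 5 genes most correlated with each of *Btg2* and *Tob1*. *Sgk1*, *Tsc22d3*, cell type markers and others noted in the text were named after their values were seen. Lists of astrocytes, OPC, neural progenitors, blood and choroid plexus had 0 genes in the table.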

Additional observations from a re-analysis of the deposited data

How the results depend on the processing

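The direction of the *Btg2* and *Tob1* differences was kept under every alternative run. For aged-repopulated against aged control brains, *Btg2* differed by -0.67 with a pseudocount of 10, -1.69 as a log2 ratio of mean RPKM and -0.94 with quantile normalization. Against young controls, *Btg2* differed by -0.38 with a pseudocount of 10 and by -0.44 with quantile normalization, in which *Btg2* takes the lowest value of the aged-repopulated libraries by construction and touches the young controls. For age, *Btg2* differed by 0.29 with a pseudocount of 10, and *Tob1* by 0.037 with centring, 0.052 with quantile normalization and 0.0045 with the length correction. For repopulation, *Tob1* differed by -0.23 with a pseudocount of 10 and -0.24 with the length correction. With a library left out, the *Btg2* difference was between 0.37 and 0.69 for age, -1.59 and -1.31 for repopulation and -1.07 and -0.79 against young controls, and that of *Tob1* between 0.11 and 0.18, -0.35 and -0.30, and -0.22 and -0.14. *Btg2* has no value with a minimum mean of 10 RPKM.

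Over the table, 433 genes were called with age (319 higher), 60 with repopulation (20 higher) and 34 against young controls (29 higher). In the same order, centring called 293 (78 higher), 133 (111 higher) and 61 (23 higher), quantile normalization 277 (88 higher), 73 (52 higher) and 43 (18 higher), and the length correction 162 (65 higher), 13 (4 higher) and 72 (26 higher). Untransformed RPKM called 21 with repopulation and 6 against young controls, no variance moderation 5 and 9, and only the groups compared 5 with repopulation. With a library left out the counts were between 269 and 438, 2 and 141, and 11 and 59. Of the early genes, the number called with repopulation was 1 with untransformed RPKM, 3 with the length correction, 0 without variance moderation and 2 with only the groups compared, and between 1 and 4 with a library left out. It was 1 for age with only the groups compared, and between 0 and 4 with a library left out. Against young controls it was 0 with untransformed RPKM and without variance moderation, and between 0 and 2 with a library left out. Of the deadenylation genes, the number called with repopulation was 0 with untransformed RPKM, the length correction, no variance moderation or only the groups compared, 2 with centring, and between 0 and 1 with a library left out. For age it was 0 with the length correction and between 2 and 3 with a library left out, and against young controls it was 0 throughout. Of 807 values of single listed genes under these alternatives, 678 kept direction and call, 84 lost the call, 16 gained it and 29 changed sign, of which 1 (*Bax* for age) was called before the change and 1 (*Tsc22d3* for age with the length correction) after it. With the length correction, *Bax* turned to -0.077 for age, 0.037 for repopulation and -0.040 against young controls, *Tsc22d3* to -0.14 for age and 0.076 for repopulation, *Cnot2* to 0.035 for repopulation, *Pabpn1* to -0.0075 against young controls, and *Cpeb3* and *Ago1* to 0.0057 and 0.0070 for age. With centring, *Tsc22d3* turned to -0.090 for age and 0.033 for repopulation, *Cnot2* to 0.021 for repopulation, and *Cnot3* and *Ago1* to -0.0024 and -0.040 against young controls. With quantile normalization, *Tsc22d3* turned to -0.075 for age and 0.022 for repopulation, and *Pabpn1* and *Ago1* to -0.021 and -0.019 against young controls. With a library left out, *Tsc22d3* lay between -0.015 and 0.046 for age, -0.057 and 0.028 for repopulation and -0.040 and 0.046 against young controls, *Sgk1* between -0.18 and 0.039 for age and -0.056 and 0.17 against young controls, and *Ago1* between -0.0046 and 0.033 against young controls. No cause of these changes was tested. No paired analysis was possible because the groups share no replicate number in the labels.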
